A study of Mus musculus with 2 samples.

Results

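The genes described here are 9 genes that mark the endothelium of the liver sinusoids: Stab2, Clec4g, Lyve1, Oit3, Gpr182, Fcgr2b, Gata4, Maf and F8. They were chosen by symbol, and all 9 were found among the 32285 gene entries of the count matrices. They were followed across cells of fibrotic mouse liver that had been depleted of hepatocytes, with 1 droplet library from Mfap2+/+ (wild-type) and 1 from Mfap2-/- (knockout) mice. Both genotypes had received carbon tetrachloride (CCl4), a hepatotoxin that scars the liver, by intraperitoneal injection for 8 weeks, and no group without CCl4 was analysed. Mfap2 encodes a protein of the microfibrils of the extracellular matrix. The labels do not give the number, age or sex of the mice behind a library, or whether several were pooled. With 1 library per genotype, genotype, animal and library preparation cannot be told apart, no test between genotypes was made, and the 95% intervals given cover counting error only.

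Sinusoidal endothelial cells line the capillaries of the liver lobule. They lack the continuous basement membrane of other capillaries, are pierced by open pores, and clear waste molecules and immune complexes from blood by endocytosis. Their identity depends on transcription factors that include Gata4 and c-Maf, and in fibrosis they can take on features of ordinary capillaries, a change called capillarisation. The 9 genes cover these functions: Stab2, Lyve1, Clec4g and Fcgr2b encode receptors for endocytosis or binding at the cell surface, Oit3 a secreted protein with a zona pellucida domain, Gpr182 a receptor that takes up chemokines, Gata4 and Maf transcription factors, and F8 clotting factor VIII, which the liver endothelium releases into blood.

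All 9 genes lie on the reverse strand of GRCm38 in the GENCODE M21 annotation. Stab2 (ENSMUSG00000035459) spans chr10:86841198-87008025, Clec4g (ENSMUSG00000074491) chr8:3707064-3720651 and Lyve1 (ENSMUSG00000030787) chr7:110850607-110863239. Oit3 (ENSMUSG00000009654) spans chr10:59422958-59441778, Gpr182 (ENSMUSG00000058396) chr10:127747276-127751732 and Fcgr2b (ENSMUSG00000026656) chr1:170958617-170976547. Gata4 (ENSMUSG00000021944) spans chr14:63198922-63271692, Maf (ENSMUSG00000055435) chr8:115682942-115707794 and F8 (ENSMUSG00000031196) chrX:75172715-75382615. Lyve1, Oit3 and Gata4 overlap no other annotated gene. The other 6 overlap genes on the opposite strand, and F8 also overlaps 1 gene, Gm8522, on its own strand. How reads in such overlaps were assigned is not given in the sources used here.

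Of the 9 genes, 4 had an entry among the RefSeq promoter sequences used (GRCm38.p6). The windows of F8 and Fcgr2b lie within the transcribed span annotated by GENCODE and are not shown. The bases upstream of Stab2 and Clec4g are shown because both receptors were almost restricted to endothelial cells here and because Gata4, one of the 9 genes, encodes a factor that binds GATA motifs. Capitals mark the letters GATA read on either strand, so that TATC is a GATA on the opposite strand. The Stab2 stretch is chr10:87008026-87008192 and the Clec4g stretch chr8:3720652-3720901, both written 5′ to 3′ on the reverse strand.
Stab2: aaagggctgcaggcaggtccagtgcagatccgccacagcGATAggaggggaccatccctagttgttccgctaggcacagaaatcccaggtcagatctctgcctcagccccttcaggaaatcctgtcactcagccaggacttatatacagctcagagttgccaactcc
Clec4g: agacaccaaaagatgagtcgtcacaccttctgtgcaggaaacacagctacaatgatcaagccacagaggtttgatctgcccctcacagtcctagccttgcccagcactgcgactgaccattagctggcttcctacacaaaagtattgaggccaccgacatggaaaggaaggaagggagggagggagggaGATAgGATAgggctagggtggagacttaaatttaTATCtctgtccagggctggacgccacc
The Stab2 stretch of 167 bases holds 1 GATA. The Clec4g stretch of 250 bases holds 3, of which 2 are on the strand of the gene and 1 is on the other. GATA occurs on either strand in 53.6% of all 32851 promoter windows of 250 bases, so its presence sets neither gene apart. The longer forms AGATAA and TGATAA, which contain GATA, and TGCTGA, the start of the element bound by Maf proteins, were found on neither strand in any of the 4 windows. They occur in 9.99%, 7.94% and 16.1% of all windows.

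The wild-type library held 11783 barcodes with a median of 4685 UMIs (unique molecular identifiers, tags that count single RNA molecules), and the knockout library 12872 with a median of 6511. After filters on gene number, mitochondrial share and doublet score, 10336 and 11428 cells were kept, and Mfap2 UMIs numbered 211 and 2 in these. Of the kept cells, 31 had a barcode present in both libraries, none of them an endothelial cell. Cells were taken as endothelial when the UMIs of Ptprb, Kdr, Cdh5 and Egfl7 summed to at least 3, which gave 1705 wild-type cells (16.5%) and 2212 knockout cells (19.4%). Many cells lay near the edge of this gate: 261 wild-type and 372 knockout cells had exactly 3 gate UMIs, and 559 and 953 cells with 2 lay just outside.

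The gated cells were not all endothelial by their other markers. In 690 wild-type cells (40.5% of the gate) and 761 knockout cells (34.4%), the gate UMIs were under 3 times those of a marker list of another cell class. Of these cells, 92.3% and 92.6% had at least 3 UMIs of the macrophage list (Adgre1, C1qa, C1qc, Vsig4). So did 35.9% of wild-type and 44.9% of knockout cells in the rest of the gate, at lower levels. The median depth of the 690 and 761 cells was 13344.5 and 16639 UMIs, and they held 68.4% and 60.9% of all gated UMIs. The other 1015 wild-type and 1451 knockout cells are called endothelial-led. They had a median of 4807 and 6543 UMIs, a macrophage-list level of 421 and 376 CPM (UMIs per 1000000 UMIs) against 4217 and 2825 in the mixed cells, and a pan-endothelial level (Pecam1, Tek, Eng, Erg, Sox18, Tie1) of 2059 and 1885 against 204 and 189. The macrophage list is part of the split rule, so its lower level in endothelial-led cells follows from the rule. The pan-endothelial genes are not part of it. This split was chosen after the marker levels had been seen, and the main values are given for both sets. It is a range on marker counts rather than a cell type, and the part that doublets or free RNA play in the mixed cells was not tested.

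The 9 genes were low in cells near the edge of the gate and high in cells with many gate UMIs. Levels here are sums over the cells of a set and are not ordered between genes. Stab2 stood at 89.7 (wild type) and 73.0 (knockout) CPM in cells with 3 or 4 gate UMIs, and at 1689 and 2241 in cells with 20 to 49. Over the same bins the endothelial-led share of cells went from 18.9% and 14.2% to 93.5% and 97.7%. Maf was at 274 and 215 with 3 or 4 gate UMIs and at 1402 and 1267 with 20 to 49. All 9 genes were higher with 20 to 49 gate UMIs than with 3 or 4 in both libraries. The increase did not go on in every gene: in cells with 50 or more gate UMIs, Stab2 stood at 1289 and 1906, below the bin before in both libraries. Clec4g stood at 415 after 634 in the wild type and at 625 after 693 in the knockout. In the wild type only Oit3 and Gata4 were above the bin before. In the knockout only Stab2, Clec4g and Gata4 were below it.

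**Figure D1:**
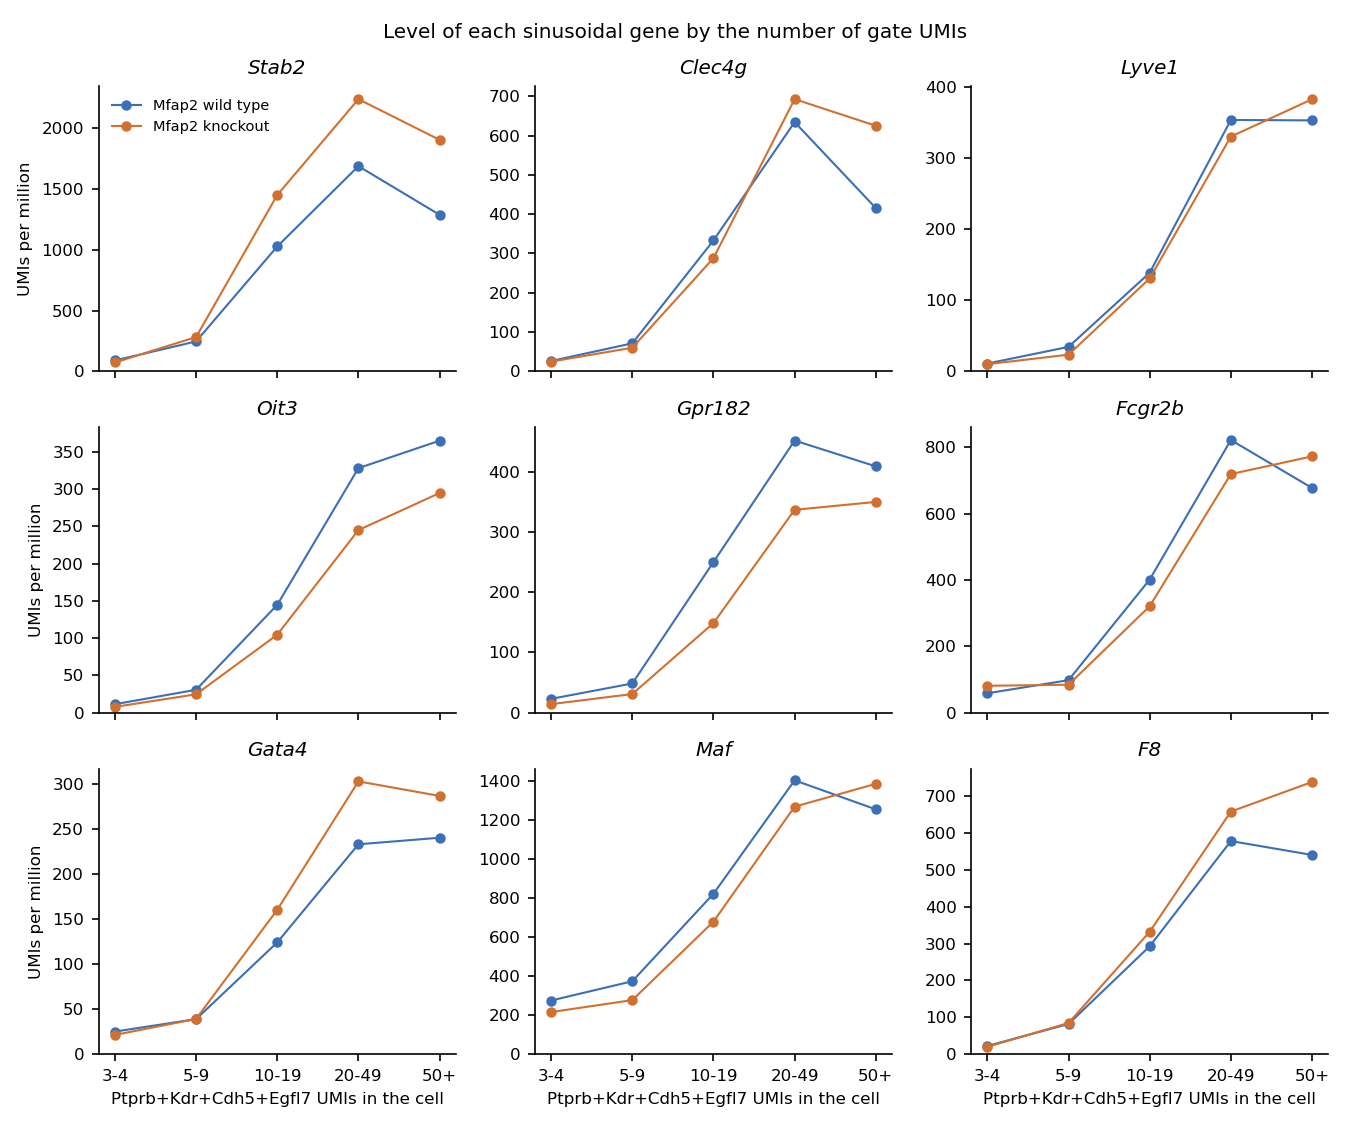
Level of each of the 9 genes (vertical axes, CPM, each panel from 0) in gated cells grouped by the sum of Ptprb, Kdr, Cdh5 and Egfl7 UMIs (horizontal axis), with 1 point per bin and library. Every gene is low in cells with 3 or 4 gate UMIs and high from 20 on; wild-type Stab2 goes from 89.7 to 1689 and is lower, at 1289, with 50 or more.

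Stab2 encodes stabilin-2, the main clearance receptor for hyaluronan. In endothelial-led cells it stood at 1852 CPM in wild-type (1817 to 1888, 10277 UMIs) and 2276 in knockout cells (2248 to 2305, 24899 UMIs). The knockout library was therefore higher, by a log2 ratio of 0.30 (0.26 to 0.33). In the whole gate, which includes the mixed cells, Stab2 stood at 667 and 972, a log2 ratio of 0.54 (0.51 to 0.57). Neutrophils, B, T and NK cells, defined by their own markers, served as background, and their Stab2 level was 20.96 to 26.3 for the wild type and 35.2 to 42.4 for the knockout. The background was thus also higher in the knockout, at a level 70.5-fold and 53.7-fold under that of endothelial-led cells. After every cell had been thinned to 2000 UMIs, 79.8% (76.8 to 82.6) of wild-type and 87.0% of knockout endothelial-led cells had a Stab2 UMI, against 3.75% to 7.23% and 6.29% to 8.43% of the background cells. Thinning left out 237 wild-type and 232 knockout endothelial-led cells. Without thinning the wild-type share was 86.5%.

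Clec4g encodes the C-type lectin LSECtin, and Lyve1 a hyaluronan receptor that sinusoidal and lymphatic endothelium share. Clec4g stood at 647 (wild type) and 660 (knockout) CPM in endothelial-led cells, a log2 ratio of 0.03 (-0.03 to 0.09). Lyve1 stood at 345 and 337, a log2 ratio of -0.03 (-0.11 to 0.05). Both intervals include 0, so neither gene differed between the libraries beyond counting error in these cells. In the whole gate both were higher in the knockout, Clec4g at 229 and 277 (0.27, 0.22 to 0.33) and Lyve1 at 124 and 139 (0.16, 0.09 to 0.24). Outside the endothelium Lyve1 was highest in cells with mesenchymal markers, at 13.3 and 13.5, 26.0-fold and 24.9-fold below endothelial-led cells. These intervals overlapped those of the next class, neutrophils in the wild type and cells with bile duct markers in the knockout. Clec4g did not exceed 17.5 in any other wild-type class, apart from 23.8 in 21 cells with hepatocyte markers, where it rests on 3 UMIs. In the knockout it reached 34.6 (20.5 to 54.6) in plasmacytoid dendritic cells, an interval that overlapped that of neutrophils (24.4, 18.7 to 31.3).

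Fcgr2b, the inhibitory receptor for IgG, takes up small immune complexes in sinusoidal cells. Its level was 841 in wild-type and 725 in knockout endothelial-led cells, so the knockout was lower by a log2 ratio of -0.21 (-0.27 to -0.16). The direction turned over all gated cells, with 309 and 328 and a ratio of 0.09 (0.04 to 0.13). This gene is also expressed by other cells of these livers. Macrophages stood at 133 and 113 and B cells at 46.7 and 61.4 CPM, against 15.2 and 20.6 in T cells. A UMI was found in 19.5% and 17.0% of thinned macrophages, compared with 73.3% and 67.0% of endothelial-led cells.

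**Figure D2:**
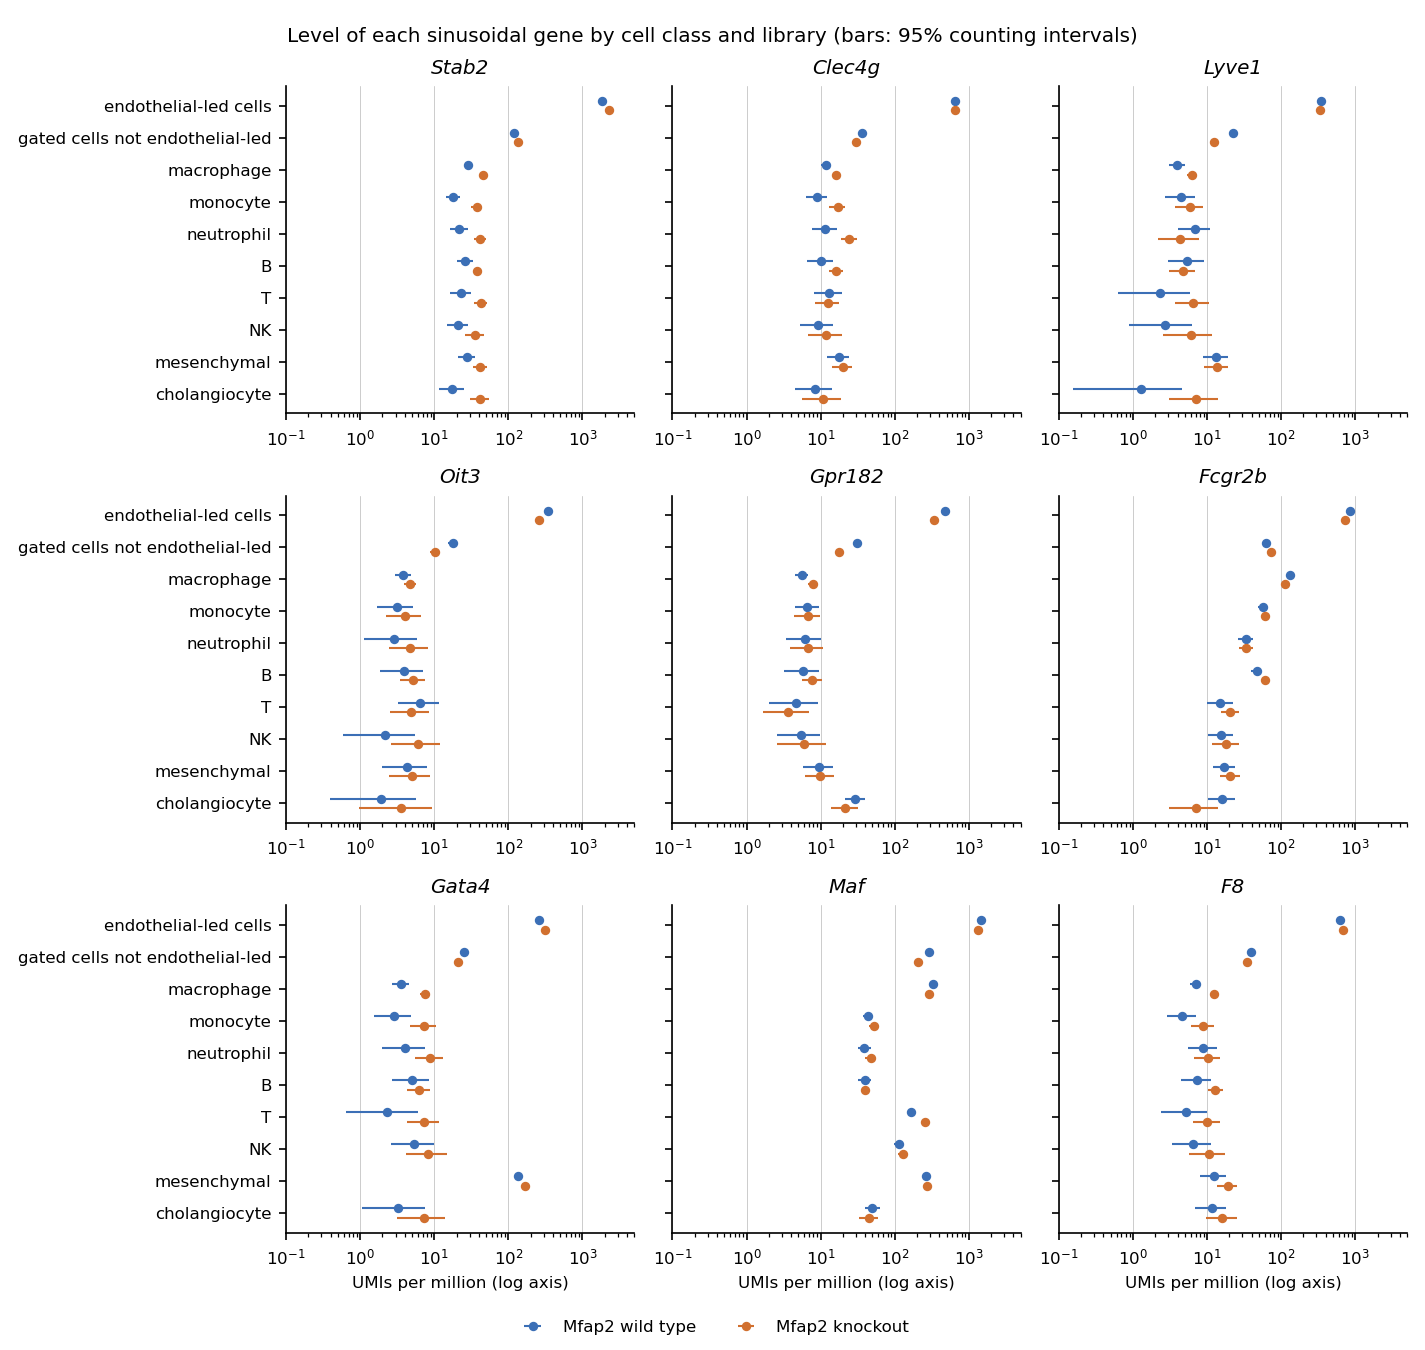
Level of the 9 genes (horizontal axes, CPM on a log axis) in each cell class (vertical axis) of the wild-type (blue) and knockout (orange) library, with 95% counting intervals. Endothelial-led cells have the highest level of every gene, whereas Gata4 in mesenchymal cells (134 and 170), Fcgr2b in macrophages (133 and 113) and Maf in several classes also stand above their background.

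Oit3 and Gpr182 were the members that were lower in the knockout by the largest ratios. Oit3 stood at 342 CPM (327 to 358) in wild-type endothelial-led cells and at 258 (249 to 268) in knockout cells. The log2 ratio was -0.41 (-0.49 to -0.32), and over all gated cells it was -0.16 (-0.24 to -0.08). Detection moved the same way, with an Oit3 UMI in 45.1% of wild-type and 35.3% of knockout thinned cells. Every other class shown stayed at or below 6.42 and 5.99, which made Oit3, with Stab2, Clec4g, Lyve1 and F8, one of the genes with little signal outside the endothelium.

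Gpr182 stood at 479 CPM in wild-type and 335 in knockout endothelial-led cells, a log2 ratio of -0.52 (-0.59 to -0.44). In the whole gate it stood at 173 and 142 (-0.28, -0.35 to -0.21). Among thinned endothelial-led cells 56.8% of the wild type and 46.8% of the knockout had a UMI, so the lower level went with fewer positive cells. Cells with bile duct markers (Krt19, Krt7, Epcam, Sox9) came second, at 29.5 and 21.5. In the knockout their interval (13.8 to 32.1) overlapped that of mesenchymal cells (6.21 to 15.0). In the 88 wild-type cells with bile duct markers, Gpr182 had 46 UMIs and 1.7 per Stab2 UMI, against 0.26 in endothelial-led cells, and in the knockout the values were 0.52 and 0.15.

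Gata4 and Maf, the transcription factors, went in opposite directions. Gata4 stood at 255 (242 to 269) in wild-type and 309 (299 to 320) in knockout endothelial-led cells, a log2 ratio of 0.27 (0.18 to 0.37), and at 97.7 and 133 over all gated cells (0.45, 0.37 to 0.53). Maf stood at 1477 and 1333, a log2 ratio of -0.15 (-0.19 to -0.11), and at 666 and 646 over all gated cells (-0.04, -0.08 to -0.01). A Gata4 UMI was found in 38.0% and 43.2% of thinned endothelial-led cells, and a Maf UMI in 87.7% and 86.0%.

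Neither factor was specific to the endothelium. Cells with mesenchymal markers, among them markers of stellate cells, stood at 134 and 170 CPM of Gata4, below endothelial-led cells by 1.91-fold and 1.81-fold only, and 20.96% and 24.2% of them carried a UMI after thinning. In macrophages Gata4 stood at 3.53 and 7.48. Maf was present in macrophages (325 and 291), mesenchymal cells (268 and 270), T cells (164 and 258) and NK cells (113 and 129), but stood at 39.4 and 39.7 in B cells. In the wild type the intervals of these classes did not overlap from endothelial-led cells down to NK cells. In the knockout the interval of macrophages overlapped that of mesenchymal cells, and that of mesenchymal cells overlapped that of T cells.

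F8 stood at 615 CPM (595 to 636) in wild-type and 693 (678 to 709) in knockout endothelial-led cells, a log2 ratio of 0.17 (0.11 to 0.23). Over all gated cells it stood at 221 and 293 (0.41, 0.35 to 0.46). No other class shown exceeded 12.3 in the wild type or 18.9 in the knockout, apart from 15.9 in the 21 wild-type cells with hepatocyte markers. Detection did not separate the libraries: 67.6% (64.2 to 70.9) and 67.8% of thinned cells had an F8 UMI.

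**Figure D3:**
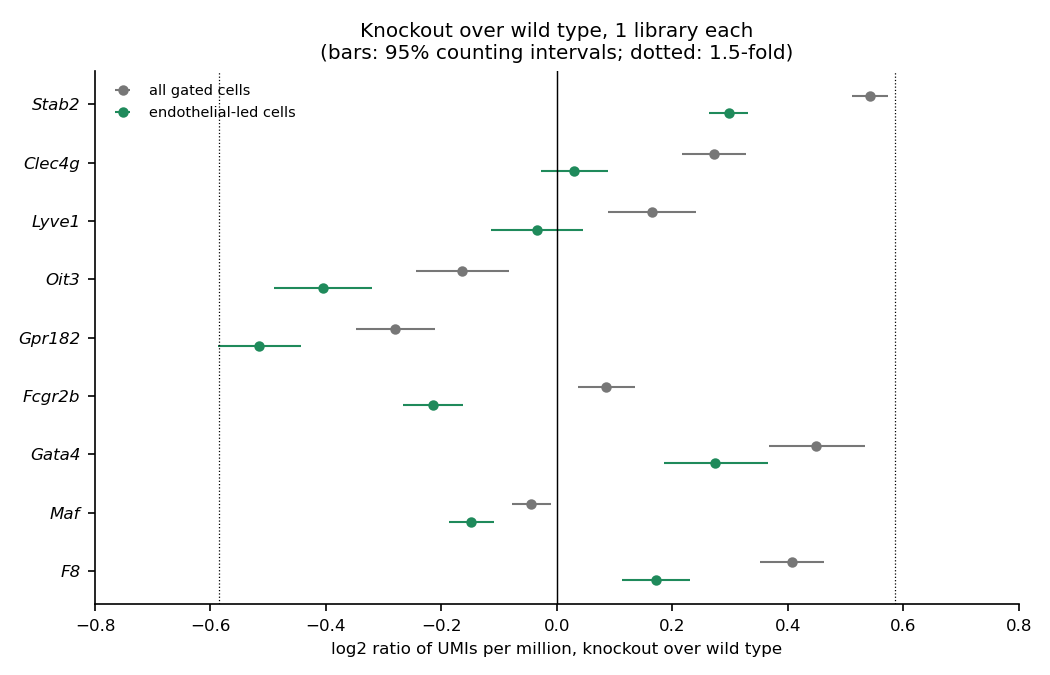
Log2 ratio of CPM, knockout over wild type (horizontal axis), for each of the 9 genes (vertical axis) in all gated cells (grey) and endothelial-led cells (green), with 95% counting intervals and dotted lines at 1.5-fold. All 9 points lie between the dotted lines; Stab2, Gata4 and F8 are above 0 and Oit3, Gpr182 and Maf below 0 in both sets.

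None of the 9 genes differed by 1.5-fold or more between the libraries, in all gated cells or in endothelial-led cells. Over all genes with at least 20 UMIs in gated cells, 16.9% of 16718 were at least 1.5-fold higher in the knockout and 7.44% at least 1.5-fold lower. The shares in endothelial-led cells were 10.6% and 12.4% of 13577 genes. Many of those genes have low counts. Among genes with a mean of at least 50 CPM, which all 9 passed, 8.24% were higher and 10.6% lower by that fold in endothelial-led cells, and 10.8% and 6.18% in all gated cells. The median log2 ratio of the 9 genes was -0.03 in endothelial-led cells, beside -0.03 over all genes there, and 0.16 in all gated cells, beside 0.10. Over the genes with a mean of at least 50 CPM the medians were 0.07 and 0.12, so the median of the 9 genes lay below this one in endothelial-led cells and above it in all gated cells. In endothelial-led cells 3 genes (Stab2, Gata4, F8) were higher, 4 (Oit3, Gpr182, Fcgr2b, Maf) lower, and 2 (Clec4g, Lyve1) had intervals that include 0. In all gated cells 6 were higher (the same 3 with Clec4g, Lyve1 and Fcgr2b) and 3 lower (Oit3, Gpr182, Maf), and no interval included 0. These counts go by intervals, and no such share was taken over all genes. By direction alone, the ratio was above 0 in 47.4% of all genes in endothelial-led cells and 57.6% in all gated cells. Among genes with a mean of at least 50 CPM these shares were 56.5% and 58.4%. In the gated cells that were not endothelial-led, 3 genes were past 1.5-fold, all lower in the knockout: Lyve1 (22.5 and 12.5), Oit3 (17.8 and 10.3) and Gpr182 (30.9 and 17.9). There 19.4% of genes were higher and 6.9% lower by that fold, and 12.3% and 5.98% of genes with a mean of at least 50 CPM.

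The libraries also differed in stress genes. Summed over Fos, Jun, Junb, Egr1, Atf3, Hspa1a, Hspa1b and Dnajb1, endothelial-led cells held 11326 (wild type) and 16525 (knockout) CPM, and 7 of the 8 genes were higher in the knockout. At least 1.5-fold higher were 4 of the 8, as were 10.6% of all genes in these cells. The median mitochondrial share of endothelial-led cells was 3.87% and 3.52%. The part of stress or depth in the ratios of the 9 genes was not tested.

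The genes were found together in single endothelial-led cells. After thinning to 2000 UMIs, such a cell had a UMI of a median of 6 of the 9 genes in the wild type (778 cells) and 5 in the knockout (1219 cells). At least 5 genes were detected in 75.2% (72.0 to 78.2) of wild-type and 69.2% (66.6 to 71.8) of knockout cells. Only 7 and 3 cells had none, and 19 and 27 cells had all 9. The mixed cells of the gate looked different, with a median of 1 gene in both libraries and none in 39.2% and 45.1% of cells. Over the whole gate, at least 5 genes were detected in 44.5% and 45.3% of cells.

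**Figure D4:**
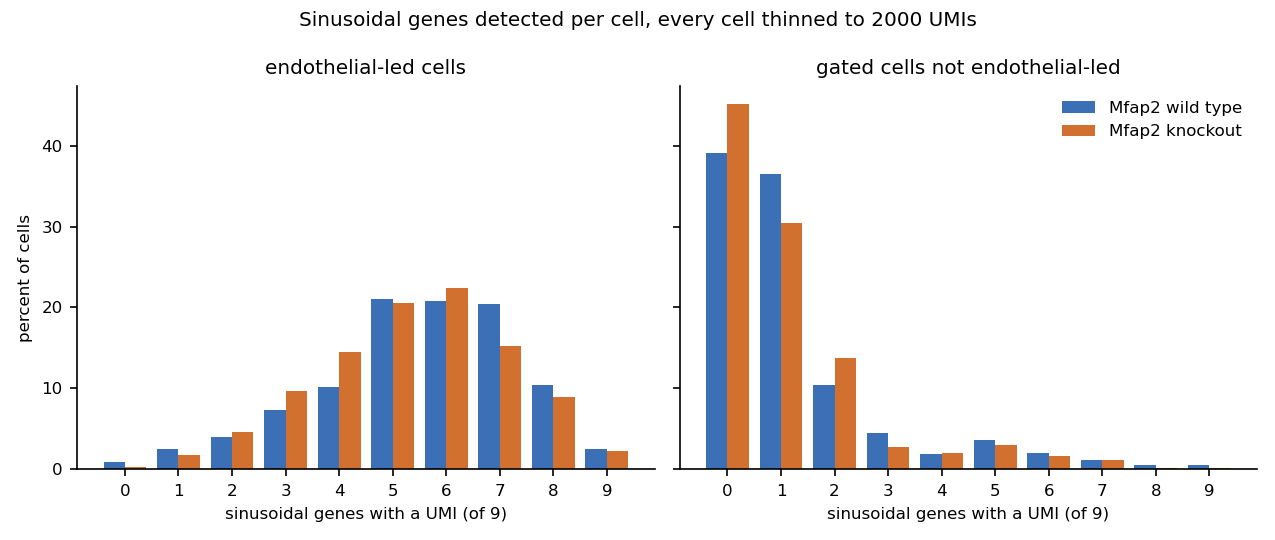
Percent of cells (vertical axis) by the number of the 9 genes with a UMI (horizontal axis) after thinning to 2000 UMIs, in endothelial-led cells (left) and the other gated cells (right) of the wild-type (blue) and knockout (orange) library. Endothelial-led cells centre on 5 to 7 genes, and the other gated cells on 0 and 1.

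Within endothelial-led cells pairs of genes were detected together little more often than their separate shares give. Over the 36 pairs, the number of cells with both genes divided by the number expected from the separate shares had a median of 1.06 in the wild type (0.94 to 1.26) and 1.04 in the knockout (0.96 to 1.20). In the whole gate the medians were 1.57 and 1.45, with every pair above 1. Lyve1 and Oit3 had the highest value in both libraries. This ratio cannot rise far above 1 for a gene found in most cells, so it does not rank pairs by strength. The Pearson correlation of log2 UMI counts in endothelial-led cells had a median of 0.14 and 0.11 over the pairs. It was highest for Stab2 with Maf in the wild type (0.40) and for Clec4g with Fcgr2b in the knockout (0.31). For Lyve1 with Oit3 it was 0.20 and 0.15. Among wild-type cells with a Lyve1 UMI 56.7% also had Oit3, against 37.0% of cells without Lyve1, and in the knockout 42.4% and 31.0%. Stab2 and Clec4g also went together: 71.0% of Stab2-positive and 28.0% of Stab2-negative wild-type cells had Clec4g, and 66.9% and 28.5% in the knockout. The lowest wild-type value belonged to Oit3 with Gata4 (0.94) and the lowest knockout value to Lyve1 with Gata4 (0.96), and Oit3 with Gata4 stood at 1.10 in the knockout.

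Von Willebrand factor (Vwf) is made by the endothelium of larger vessels and by capillarised sinusoidal cells, and the 9 genes divided by their level in endothelial-led cells that carry it. Of the thinned cells, 64 wild-type (8.23%) and 44 knockout cells (3.61%) had at least 2 Vwf UMIs, and 593 and 1100 had none. Stab2 stood at 984 CPM in the wild-type cells with Vwf and at 2263 in those without. In the knockout these levels were 477 and 2657. The log2 ratios of cells with at least 2 Vwf UMIs over cells with none were -1.19 (-1.47 to -0.94) and -2.44 (-2.95 to -2.04). Clec4g (-1.17 and -1.83), Fcgr2b (-1.05 and -1.85) and Maf (-0.68 and -1.58) were likewise lower in cells with Vwf in both libraries. Lyve1 was lower by -1.40 (-2.25 to -0.80) in wild-type cells. The knockout had a single Lyve1 UMI in the 44 cells with Vwf, against 753 UMIs in the 1100 cells without.

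Gata4 and F8 were not lower beyond counting error in endothelial-led cells with Vwf. Gata4 stood at 289 in cells with Vwf and 269 in cells without in the wild type, and at 273 and 334 in the knockout, with ratios of 0.14 (-0.43 to 0.60) and -0.24 (-0.94 to 0.29). F8 stood at 711 and 663 in the wild type and at 580 and 704 in the knockout (0.12, -0.23 to 0.42, and -0.25, -0.71 to 0.12). All 4 intervals include 0, and with 24 to 91 UMIs behind the levels in cells with Vwf they leave room for differences of the size of their bounds. Oit3 was lower with Vwf in the wild type (-0.80, -1.50 to -0.27) with an interval that includes 0 in the knockout (-0.55, -1.53 to 0.11), and Gpr182 the reverse (-0.22, -0.65 to 0.15, and -0.77, -1.61 to -0.18). The split gave other values over all gated cells, where the cells without Vwf include most of the mixed cells: Gata4 (0.97, 0.44 to 1.40), F8 (0.86, 0.52 to 1.15) and Gpr182 (0.55, 0.13 to 0.91) were higher with Vwf in the wild type, and their knockout intervals included 0. Stab2 remained lower there, at -0.43 (-0.70 to -0.18) and -1.92 (-2.43 to -1.52).

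**Figure D5:**
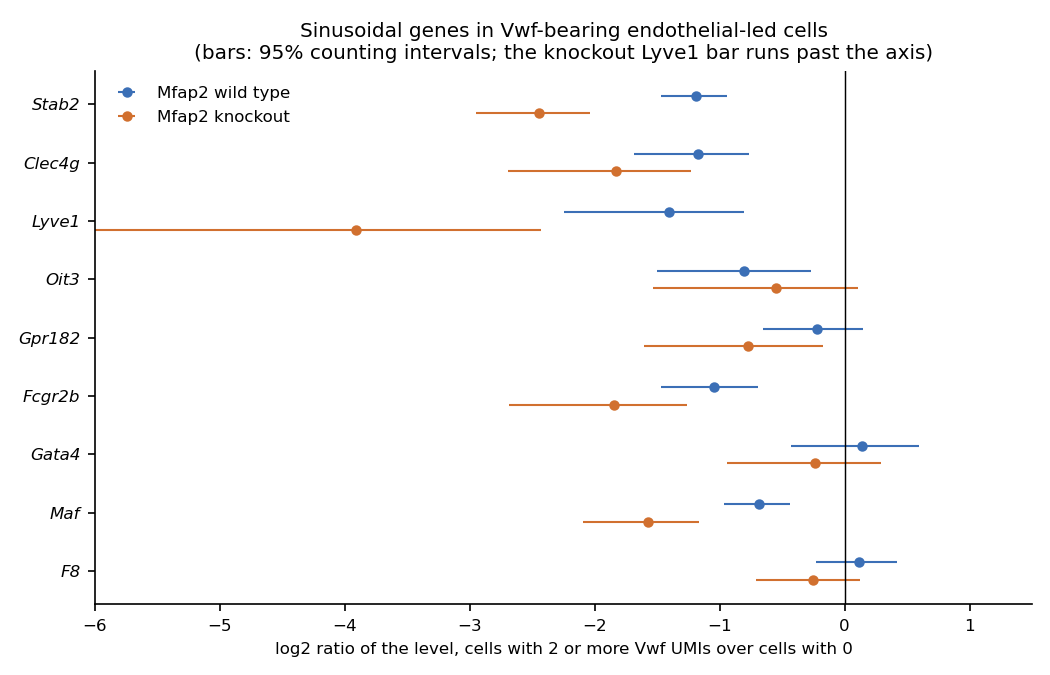
Log2 ratio of the level in endothelial-led cells with at least 2 Vwf UMIs over those with 0 (horizontal axis) for each gene (vertical axis) in the wild-type (blue) and knockout (orange) library, after thinning, with 95% counting intervals. Stab2, Clec4g, Lyve1, Fcgr2b and Maf lie below 0 in both libraries, and the intervals of Gata4 and F8 include 0 in both.

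The libraries were also compared among thinned endothelial-led cells with no Vwf UMI. There the log2 ratio of Stab2 was 0.23 (0.17 to 0.30) and that of Gata4 0.31 (0.12 to 0.51), whereas that of F8 was 0.09 (-0.04 to 0.21), an interval that includes 0. Oit3 (-0.50, -0.69 to -0.31), Gpr182 (-0.54, -0.69 to -0.39), Fcgr2b (-0.32), Maf (-0.18) and Lyve1 (-0.20, -0.36 to -0.03) were lower in the knockout. For Clec4g the ratio was -0.09 (-0.21 to 0.03). Over thinned endothelial-led cells with and without Vwf, the ratios were 0.28 (Stab2), 0.31 (Gata4), 0.08 (F8) and -0.02 (Clec4g). Those of Oit3, Gpr182, Fcgr2b, Maf and Lyve1 were -0.43, -0.53, -0.28, -0.19 and -0.14. In cells with Vwf, Stab2 was instead lower in the knockout, which the vascular-list split given below did not show. Its ratio was -0.51 (-0.79 to -0.24) with 1 Vwf UMI and -1.02 (-1.58 to -0.53) with at least 2. Gata4 stood at 0.62 (0.10 to 1.14) and -0.06 (-0.89 to 0.70), and F8 at 0.35 (0.01 to 0.69) and -0.28 (-0.82 to 0.22). With at least 2 Vwf UMIs the ratio of every gene was below 0, but the intervals of Clec4g, Oit3, Gata4 and F8 included 0. The share of all genes below 0 in these cells was not taken.

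A split by the 8 genes of the vascular list (Vwf, Cd34, Ly6c1, Plvap, Efnb2, Sox17, Gja4, Selp) depended on the cells and on Selp. In endothelial-led cells Stab2 was lower with at least 2 list UMIs than with none, by log2 ratios of -0.84 and -0.67, and by -0.58 and -0.44 without Selp. Gata4 had ratios of -0.01 (-0.35 to 0.36) in wild-type and 0.22 (-0.02 to 0.46) in knockout cells. Without Selp these were -0.03 (-0.36 to 0.31) and 0.44 (0.20 to 0.68), so the knockout difference excluded 0 for the shorter list only. F8, unlike in the Vwf split, was lower with at least 2 list UMIs in the wild type, at -0.34 (-0.56 to -0.13). In the knockout it was at 0.10 (-0.06 to 0.27), and without Selp both F8 intervals included 0. Over all gated cells the Stab2 ratios turned to 0.83 and 0.47, and to 0.84 and 0.54 without Selp. Between the libraries, Stab2 was higher in knockout endothelial-led cells with at least 2 list UMIs, unlike in those with Vwf. The log2 ratio of knockout over wild type was 0.25 (0.15 to 0.36), and 0.28 (0.17 to 0.40) without Selp. With the full list it was 0.42 (0.18 to 0.67) for Gata4, 0.21 (0.05 to 0.38) for F8, and below 0 for the other genes.

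Other genes of the sinusoidal programme also went both ways in endothelial-led cells. Of 11 further sinusoidal genes, 4 were higher, 5 lower and 2 had intervals that include 0, with a median of -0.01. Over all gated cells 6 were higher and 3 lower, with a median of 0.26. By direction alone, 47.4% of all genes in endothelial-led cells and 57.6% in all gated cells had a ratio above 0. Bmp2, a signal that controls hepatocyte iron sensing, was the only one of the 11 past 1.5-fold in either set, at 615 and 1082 CPM (0.81, 0.76 to 0.87). Mrc1 (0.30), the mannose receptor, and the transcription factor Meis2 (0.25) were higher, and Clec1b (-0.35), Dnase1l3 (-0.34), a secreted nuclease, and the Wnt ligand Wnt2 (-0.40) lower. Of 8 genes of vascular endothelium 6 were lower in the knockout and 1, Efnb2 (0.50), higher, with a median of -0.55. In endothelial-led cells 4 of the 8 were lower by at least 1.5-fold, as were 12.4% of all genes. Over all gated cells 6 of the 8 were lower and 2 higher, with a median of -0.47. Vwf itself stood at 232 and 99.1 (-1.23), and Gja4, a connexin of arteries, at 170.1 and 69.3 (-1.30). Of 5 lymphatic genes, 4 had at least 20 UMIs in endothelial-led cells, and these were higher in the knockout by over 1.5-fold, as were 10.6% of all genes there. Ccl21a (0 and 90), Mmrn1 (4 and 34) and Reln (42 and 136) rest on few UMIs, and the Ccl21a UMIs lay in 7 knockout cells. Prox1, the lymphatic regulator, had 131 and 635 UMIs in 92 and 291 cells. Its level was 23.6 and 58.1 CPM (1.29, 1.02 to 1.58). In the gated cells that were not endothelial-led, Prox1 stood at 74.2 and 91.9 CPM and Reln at 122 and 83.9. Both genes were thus higher there than in endothelial-led cells. Over all gated cells only 2 of the 5 were higher, and Reln was lower (-0.62, -0.72 to -0.52). Lyve1 is shared with lymphatic endothelium, and the part of such cells in its level was not tested.

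The genes most like the 9 were ranked by the Pearson correlation of log2(1 + UMIs) with the summed UMIs of the 9 over thinned cells, taking the lower of the values of the 2 libraries. The sum gives most weight to Stab2 and Maf. In endothelial-led cells they stood at 1852 and 1477 of the summed 6854 CPM in the wild type. In the knockout they stood at 2276 and 1333 of 6927. Over all gated cells (1424 wild-type, 1961 knockout) Igfbp7 (0.64 and 0.62), Fbxl7 (0.61 and 0.62), Dnase1l3 (0.71 and 0.61), Adam23 (0.68 and 0.61) and Meis2 (0.61 and 0.62) led, followed by Plekhg1, Selenop, Plpp3, Fabp4 and Dlc1. The least alike were Fth1 (-0.64 and -0.57), Cd44, Tmsb4x, Ptprj and Klf6. The gate mixes endothelial-led and other cells, so the ranking was repeated within the former. There (778 and 1219 cells) Selenop (0.43 and 0.39), Dnase1l3 (0.44 and 0.37), Adam23 (0.54 and 0.37), Mrc1 (0.37 and 0.34) and Ctsl (0.45 and 0.28) led, followed by Igfbp7, Slc9a9, Ets1, Gpihbp1 and Plxnc1. The least alike were Selp (-0.46 and -0.43), the adhesion receptor for leukocytes on activated endothelium, Rspo3 (-0.47 and -0.39), a Wnt pathway enhancer made by central vein endothelium, Cdh13, Rbms3 and Fbln2. These correlations are over cells of 1 library each and describe those libraries.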

How the data were processed

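Single-cell RNA was measured in non-parenchymal liver cells with Chromium 3′ v3 chemistry, per the labels' protocols. The deposited matrices hold raw UMI counts per gene and barcode. Per the file headers the software was Cell Ranger 7.0.1, whereas the submitters' processing notes name Cell Ranger 3.1.0, Seurat and mm10. The annotation, the treatment of introns and any earlier cell filter are not given in the sources used here.

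A filter on cells (200 genes or more, no more than 20% mitochondrial UMIs) took out 413 barcodes of the wild type and 149 of the knockout. The 1034 and 1295 cells with the highest Scrublet scores (scanpy 1.11.5; 0.8% per 1000 cells) were then removed, because the automatic threshold marked 1 wild-type and 727 knockout cells and so did not work in the wild type. UMIs were summed over cells per library and class and scaled to CPM. Other classes had under 3 gate UMIs and at least 3 UMIs of their own markers, and at least 3 times those of any other list. Ratios have 1 count added. Intervals are exact Poisson, conditional binomial (ratios) and Clopper-Pearson (shares). Only the ratio intervals were tried on simulated counts. Those were Poisson sums, which the intervals assume, so the trial does not cover clustering of UMIs by cell. Detection used cells thinned to 2000 UMIs.

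The genes, lists and gates were chosen with earlier results of these data known. Besides the 9 genes, the genes named are those of the fixed lists (other sinusoidal, vascular, lymphatic, pan-endothelial, stress) and the 10 most and 5 least alike by correlation with the 9; from these lists single genes were picked as examples. The endothelial-led set and the Vwf split were added after the data had been seen.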

Additional observations from a re-analysis of the deposited data

How the results depend on the processing

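With 1 library per genotype nothing here has a replicate check. No paired analysis was possible because each genotype has 1 library, whose replicate number only names it. Under 11 alternatives of gate, doublet filter, cell filter and scaling, Stab2, Gata4 and F8 remained above 0 and Oit3 and Gpr182 below 0; their log2 ratios ranged from 0.27 to 0.64, 0.25 to 0.56, 0.11 to 0.49, -0.41 to -0.08 and -0.58 to -0.20. Restricting to endothelial-led cells, an alternative chosen after seeing the data, turned Fcgr2b to -0.21, Lyve1 to -0.035 and the median of the 9 genes to -0.035. Leaving out cells with 3 UMIs of another class turned Fcgr2b to -0.26, Clec4g to -0.075, Lyve1 to -0.19 and the median to -0.19. Means of per-cell values turned Fcgr2b to -0.13, Clec4g to -0.0025, Lyve1 to -0.0049 and the median to -0.0049. Fcgr2b was also turned by requiring 2 gate genes (-0.056), by thinning (-0.091) and by median-of-ratios scaling (-0.0099), and Maf by a gate at 5 UMIs (0.048). The median of the 9 genes, 0.16 as reported, was 0.24 with a gate at 5 UMIs, 0.043 with 2 gate genes, 0.065 with no doublets removed, 0.0022 with thinning and 0.069 with median-of-ratios scaling. In endothelial-led cells it was -0.14 with thinning and -0.16 without cells with a Vwf UMI. In the 6 alternatives for endothelial-led cells, Stab2, Gata4 and F8 remained above 0, and Oit3, Gpr182, Fcgr2b and Maf below 0. No alternative was restricted to cells with Vwf, where Stab2 was lower in the knockout. The share of gated cells with at least 5 of the 9 genes was, in the wild type and the knockout, 24.9% and 22.7% thinned to 1000 UMIs, 59.2% and 66.2% not thinned, 56.5% and 59.6% with a gate at 5 UMIs, 39.9% and 40.1% with no doublets removed, 77.3% and 68.9% without cells with 3 UMIs of another class, and 75.2% and 69.2% in endothelial-led cells. The cause of these shifts was not tested.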
